A study of Mus musculus with 12 samples.

Results

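The genes studied here mark Kupffer cells, the resident macrophages of the liver or macrophages in general, and they were followed in liver RNA from 12 mice. The members are Clec4f, Cd5l, Vsig4, Timd4, Marco, Emr1, Csf1r and Cd68, chosen by name as markers. They make up 8 of the 22609 gene symbols counted, and all 8 were among the 13684 genes that passed the filter on low counts. Emr1, now named Adgre1, is the gene of the F4/80 antigen and stands in the count tables under the older symbol.

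Whole livers of untreated adult animals were sequenced, 3 per genotype. Parents heterozygous for an Alb/AEG-1 or an Alb/c-Myc transgene were mated, and their offspring gave 4 groups. WT mice carried neither transgene, AEG1 mice carried Alb/AEG-1, MYC mice carried Alb/c-Myc, and AEG1_MYC mice carried both. Alb stands for the albumin promoter, which is active in hepatocytes, so these lines are not models of a gene acting inside the macrophage. Mtdh is the mouse gene of AEG-1, astrocyte elevated gene-1, and the product of Myc drives transcription of growth genes. The strain, sex, exact age, litter and batch of the mice are not given in the sources used here. Replicate numbers name a mouse and carry no order.

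Kupffer cells sit inside the liver sinusoids, where they take up bacteria, dying cells, old red cells and complement-coated particles from portal blood. They are seeded before birth from fetal precursors, need CSF1 receptor signalling to survive, and acquire a set of surface genes that includes Clec4f, Timd4 and Vsig4. Monocytes can replace lost Kupffer cells; such newcomers gain Clec4f early and Timd4 late. PU.1, encoded by Spi1 (Sfpi1 in the count tables), is the lineage factor of macrophages and binds purine-rich sites around a GAGGAA core. RBPJ, downstream of Notch, and large MAF factors also act in macrophage differentiation.

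Start-site sequences are shown for 4 members that behaved differently from each other in the libraries. Marco varied most between mice, Vsig4 followed the shared pattern of the Kupffer cell genes, Timd4 was very low in a single mouse, and Cd68 varied least. Each run of 300 bases covers 250 bases before the start of transcription to 50 bases after it, on the gene's own strand, 5′ to 3′. Capitals mark the PU.1 core GAGGAA or its reverse complement TTCCTC. The sequences were matched by symbol to RefSeq promoters of GRCm38.p6, while the reads were counted on mm9. The regions are chr1:120504975-120505274 on the minus strand for Marco, chrX:96293389-96293688 on the minus strand for Vsig4, chr11:46810549-46810848 on the plus strand for Timd4, and chr11:69666121-69666420 on the minus strand for Cd68.
Marco: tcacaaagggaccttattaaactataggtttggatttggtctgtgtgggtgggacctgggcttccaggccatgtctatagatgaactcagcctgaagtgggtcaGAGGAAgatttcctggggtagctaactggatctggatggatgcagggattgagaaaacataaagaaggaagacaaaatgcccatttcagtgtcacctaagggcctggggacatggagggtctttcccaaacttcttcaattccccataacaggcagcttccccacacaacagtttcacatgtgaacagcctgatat
Vsig4: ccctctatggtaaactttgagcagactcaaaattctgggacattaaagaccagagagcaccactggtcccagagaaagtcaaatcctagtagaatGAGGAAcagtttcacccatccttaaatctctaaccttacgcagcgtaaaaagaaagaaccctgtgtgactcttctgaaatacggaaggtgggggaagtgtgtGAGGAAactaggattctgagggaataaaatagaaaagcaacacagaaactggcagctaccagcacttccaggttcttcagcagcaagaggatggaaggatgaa
Timd4: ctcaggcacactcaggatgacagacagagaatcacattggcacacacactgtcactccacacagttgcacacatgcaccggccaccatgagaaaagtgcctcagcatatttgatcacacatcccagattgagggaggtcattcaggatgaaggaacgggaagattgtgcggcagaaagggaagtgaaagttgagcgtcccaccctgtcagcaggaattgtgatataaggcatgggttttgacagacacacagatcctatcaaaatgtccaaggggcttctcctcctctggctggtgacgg
Cd68: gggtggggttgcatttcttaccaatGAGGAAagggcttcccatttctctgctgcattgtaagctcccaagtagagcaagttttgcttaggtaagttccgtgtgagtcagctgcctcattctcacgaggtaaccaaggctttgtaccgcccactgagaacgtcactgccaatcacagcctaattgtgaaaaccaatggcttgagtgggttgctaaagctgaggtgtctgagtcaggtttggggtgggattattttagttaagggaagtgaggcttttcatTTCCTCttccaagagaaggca

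The Marco window held 1 PU.1 core, 146 bases before the start. Vsig4 held 2, at 155 and 53 bases before it, and Cd68 held 2, at 225 bases before and 29 bases after it. Cd5l held 1, at 66 bases before its start, and the windows of Timd4 and Clec4f held none. Promoters were matched for 6 of the 8 members, and 4 of these 6 had the core on either strand, as did 28.3% of the 32851 RefSeq promoters of the same length. The E-box CACGTG, a sequence that Myc binds, was in none of the 6 windows and in 7.15% of all promoters. TGGGAA, the RBPJ core, was found in Clec4f, Marco and Cd68 and in 25.6% of all promoters. TGCTGA, part of the MAF recognition element, was found in Clec4f, Cd5l, Vsig4 and Timd4 and in 19.5% of all promoters. Both strands were searched for each motif, and no match of one motif overlapped a match of another in these 6 windows. A match describes letters only.

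Depth ran from 21931197 to 40552316 reads in genes per library. CPM are read counts per 1000000 reads of a library's TMM-scaled total. A level per kilobase was used where the markers are ranked by level. Ratios of reads and sums over genes are not scaled for transcript length. Myc marked the MYC label, at 2.26 to 4.73 CPM in the 6 libraries without the transgene and 23.4 to 165 CPM in the 6 with it. Mtdh gives no such check of the AEG1 label, since the species of the AEG-1 transgene is not given in the sources used here. The liver label held, with the 7 hepatocyte markers summing to between 33760 CPM (AEG1_MYC replicate 2) and 109700 CPM (WT replicate 1). AEG1_MYC replicates 1 and 2 stood apart: their log2 CPM correlated on average at 0.955 and 0.923 with the other libraries, against 0.968 to 0.972 for the other 10.

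No member passed the test in any comparison of genotypes. For Clec4f, Cd5l, Vsig4, Timd4, Marco, Emr1 and Csf1r, the largest SD within a genotype exceeded the largest gap between genotype means. For Cd68 it did not, and Cd68 in AEG1_MYC against WT was the nearest to a call. By edgeR's quasi-likelihood test with Benjamini-Hochberg adjustment over all genes, 0 of 8 members were called at an adjusted p under 0.05 in AEG1, MYC or AEG1_MYC against WT, where 0%, 0% and 0.263% of all genes were called. The count was also 0 of 8 for MYC against AEG1 (0% of all genes), AEG1_MYC against AEG1 (0.322%) and AEG1_MYC against MYC (0.205%). It was 0 of 8 again for the interaction of the transgenes (0.0219%), MYC carriers against non-carriers (0.110%), AEG1 carriers against non-carriers (0.0512%) and any difference among the 4 genotypes (0.519%). At an unadjusted p under 0.05, Cd68 alone passed, in AEG1_MYC against WT (17.2% of all genes passed) and in MYC carriers (11.1%). No member passed it in AEG1 or MYC against WT or MYC against AEG1 (3.92%, 3.47% and 3.68% of all genes), nor in AEG1_MYC against AEG1 or MYC (17.4% and 15.2%). None did in the interaction (9.25%), in AEG1 carriers (9.43%) or over all 4 genotypes (12.7%). In bulk liver, fewer cells of a type and less RNA per cell cannot be told apart.

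Groups of 3 mice seldom separated. Against WT, 0 of 8 members had non-overlapping groups in AEG1, MYC or AEG1_MYC livers, where 10.7%, 11.6% and 19.5% of all genes did. Timd4 was the 1 member whose groups did not overlap in any pairwise comparison, with every MYC library above every AEG1 library; 12.3% of all genes separated there, and 5.95% in that direction. In AEG1_MYC against AEG1 and against MYC, none of the 8 separated, beside 17.8% and 18.5% of all genes, and none did between carriers and non-carriers of MYC (1.08%) or AEG1 (0.263%).

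**Figure D1:**
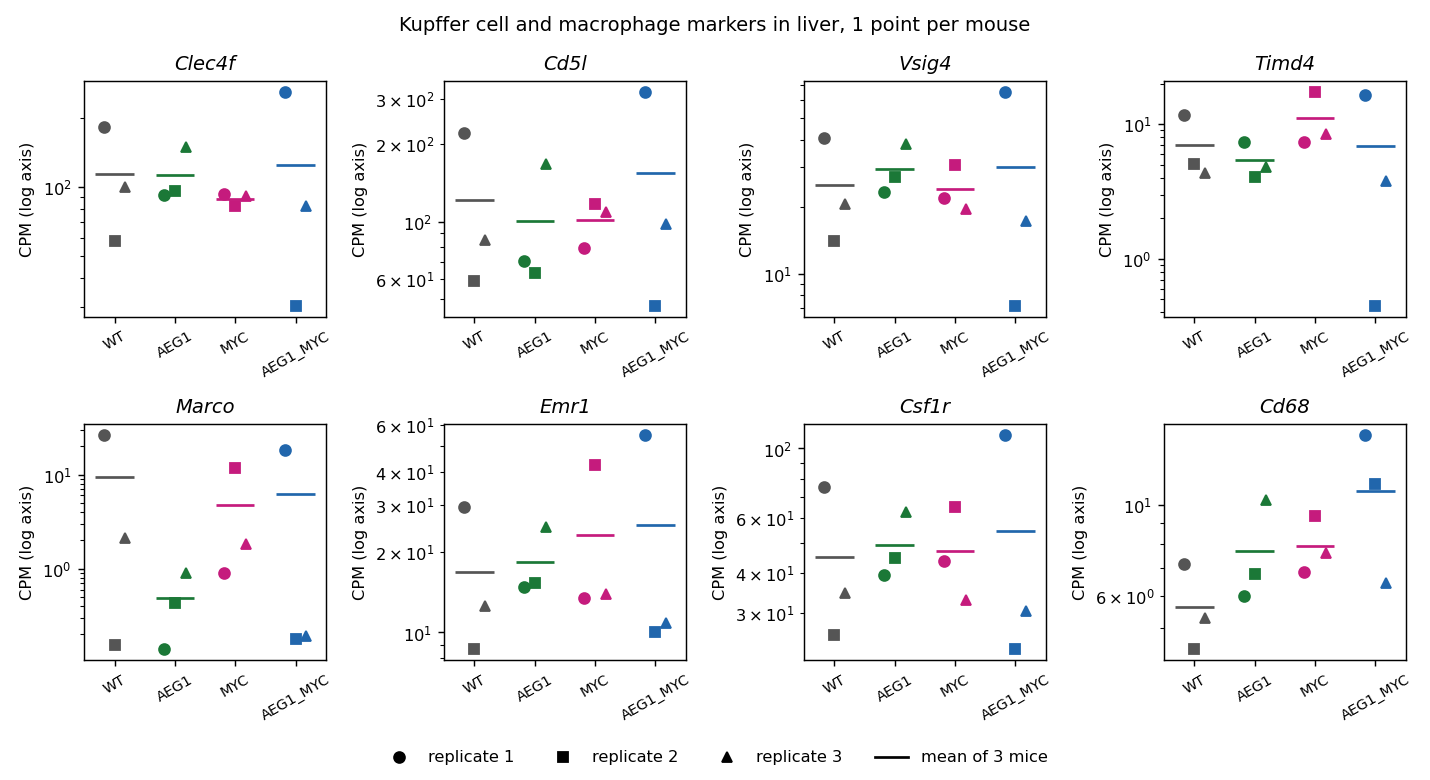
CPM of each of the 8 markers on a log axis, 1 point per mouse, by genotype; horizontal lines are means of 3 mice. AEG1_MYC replicate 1 is the highest mouse of its genotype in all 8 panels, and AEG1_MYC replicate 2 is the lowest in 7 of 8.

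Clec4f encodes a C-type lectin that binds galactose-containing glycans and, in the mouse, is restricted to Kupffer cells. Its level was 183, 57.8 and 99.7 CPM in WT, 92.3, 95.9 and 150 CPM in AEG1, 92.8, 82.8 and 91.3 CPM in MYC, and 260, 30.2 and 82.3 CPM in AEG1_MYC replicates 1 to 3. The 3 MYC libraries lay close together inside the range of WT, and AEG1_MYC held both the highest and the lowest of the 12. The log2 fold change of AEG1_MYC against WT was 0.13 ± 0.63 (SE; 3 against 3 mice; edgeR adjusted p = 0.931), with a 95% interval of -1.27 to 1.53.

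Timd4 encodes a phosphatidylserine receptor with which embryo-derived Kupffer cells take up apoptotic cells. It stood at 11.8, 5.05 and 4.36 CPM in WT, 7.33, 4.08 and 4.85 CPM in AEG1, 7.39, 17.4 and 8.46 CPM in MYC, and 16.6, 0.445 and 3.79 CPM in AEG1_MYC. AEG1_MYC replicate 2 was the low library, with 15 reads against 84 to 626 in the other 11. All 3 MYC livers lay above all 3 AEG1 livers, by a log2 difference of 1.03 ± 0.89 that did not pass (edgeR adjusted p = 1) and was 0.55 without MYC replicate 2. Against WT the log2 fold changes were -0.38 ± 0.89 in AEG1, 0.65 ± 0.88 in MYC and -0.03 ± 0.88 in AEG1_MYC. The MYC value was 0.16 without MYC replicate 2. The AEG1_MYC value was -1.75 without AEG1_MYC replicate 1 and 0.52 without replicate 2.

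Vsig4, or CRIg, is the complement receptor with which Kupffer cells capture opsonised bacteria. Its levels were 40.6, 14.1 and 20.6 CPM in WT, 23.4, 27.1 and 38.3 CPM in AEG1, 21.8, 30.7 and 19.5 CPM in MYC, and 65.5, 7.17 and 17.3 CPM in AEG1_MYC. The order of the 3 AEG1_MYC livers was that of Clec4f, and both extremes again came from this genotype. Against WT, the AEG1_MYC value was 0.25 ± 0.66 on the log2 scale (edgeR adjusted p = 0.864), and it was -1.03 without AEG1_MYC replicate 1.

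Cd5l encodes AIM, a secreted protein that macrophages release into blood and that binds IgM. It was measured at 222, 58.9 and 85.1 CPM in WT, 70.5, 63.0 and 168 CPM in AEG1, 79.1, 118 and 109 CPM in MYC, and 320, 47.0 and 98.2 CPM in AEG1_MYC. The genotype means ran from 101 ± 58.8 CPM in AEG1 (SD, n = 3) to 155 ± 145 CPM in AEG1_MYC. The difference between AEG1_MYC and WT was 0.35 ± 0.69 (log2, edgeR adjusted p = 0.820) and -0.74 without AEG1_MYC replicate 1.

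Marco encodes a class A scavenger receptor that binds bacteria and particles. It had the widest range of the 8 markers, at 26.3, 0.153 and 2.09 CPM in WT, 0.139, 0.437 and 0.904 CPM in AEG1, 0.898, 11.6 and 1.84 CPM in MYC, and 18.1, 0.178 and 0.193 CPM in AEG1_MYC. In reads this was 863, 4 and 49 in the 3 WT livers and 548, 6 and 6 in the 3 AEG1_MYC livers, so a high and a near-absent liver stood side by side within each of these genotypes. The AEG1 livers had 5, 9 and 36 reads and the MYC livers 26, 417 and 70. No AEG1 liver exceeded 1 CPM, but WT replicate 2 was also below 1 CPM, so AEG1 and WT overlapped. The log2 fold change of AEG1 against WT was -4.24 ± 2.07 (unadjusted p = 0.0658, adjusted p = 1, edgeR), and it was -1.15 without WT replicate 1. In AEG1_MYC it was -0.64 ± 1.73, with -5.66 without AEG1_MYC replicate 1 and 2.47 without WT replicate 1.

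Emr1 encodes F4/80, an adhesion G protein-coupled receptor used across mouse tissues to identify macrophages. Its levels were 29.5, 8.65 and 12.6 CPM in WT, 14.8, 15.3 and 24.9 CPM in AEG1, 13.5, 42.5 and 13.9 CPM in MYC, and 55.1, 10.05 and 10.8 CPM in AEG1_MYC. One liver in each genotype stood above the other 2. AEG1_MYC against WT gave 0.58 ± 0.72 (log2, edgeR adjusted p = 0.703), and -0.69 without AEG1_MYC replicate 1.

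Csf1r encodes the receptor for CSF1 and IL-34, on which Kupffer cells depend. It stood at 75.4, 25.4 and 34.6 CPM in WT, 39.6, 44.9 and 62.8 CPM in AEG1, 43.7, 65.0 and 32.9 CPM in MYC, and 110, 22.9 and 30.3 CPM in AEG1_MYC. The same 4 livers as for Emr1 were the highest of their genotypes. Its log2 fold change in AEG1_MYC against WT was 0.27 ± 0.58 (edgeR adjusted p = 0.834) and -0.75 without AEG1_MYC replicate 1. The receptor's 2 ligand genes were near level between these groups. Csf1 gave 0.10 ± 0.22 (12.4 to 26.3 CPM over the 12 libraries), and Il34 gave 0.03 ± 0.34 (1.21 to 3.31 CPM). Csf1 and Il34 were both negative, at -0.24 and -0.23, without AEG1_MYC replicate 1.

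Cd68 encodes a lysosomal glycoprotein of macrophages and other phagocytes. It was 7.17, 4.44 and 5.30 CPM in WT, 5.99, 6.79 and 10.3 CPM in AEG1, 6.84, 9.39 and 7.62 CPM in MYC, and 14.8, 11.2 and 6.45 CPM in AEG1_MYC. The means were 5.64 ± 1.40, 7.69 ± 2.29, 7.95 ± 1.31 and 10.8 ± 4.19 CPM (SD, n = 3), and AEG1_MYC replicate 3 lay within the WT range. AEG1_MYC stood above WT by 0.94 ± 0.32 on the log2 scale, at an edgeR adjusted p of 0.186 over all genes. Without AEG1_MYC replicate 3 the value was 1.21 and passed (adjusted p = 0.0413), in a fit that called 687 of 13891 genes (4.95%) against 36 with that library. Without replicates 1 and 2 together it was 0.20 (adjusted p = 0.948). The difference was 0.45 ± 0.31 in AEG1 and 0.49 ± 0.31 in MYC against WT, and the interaction for Cd68 was near 0, with a 95% interval of -0.96 to 0.95.

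**Figure D2:**
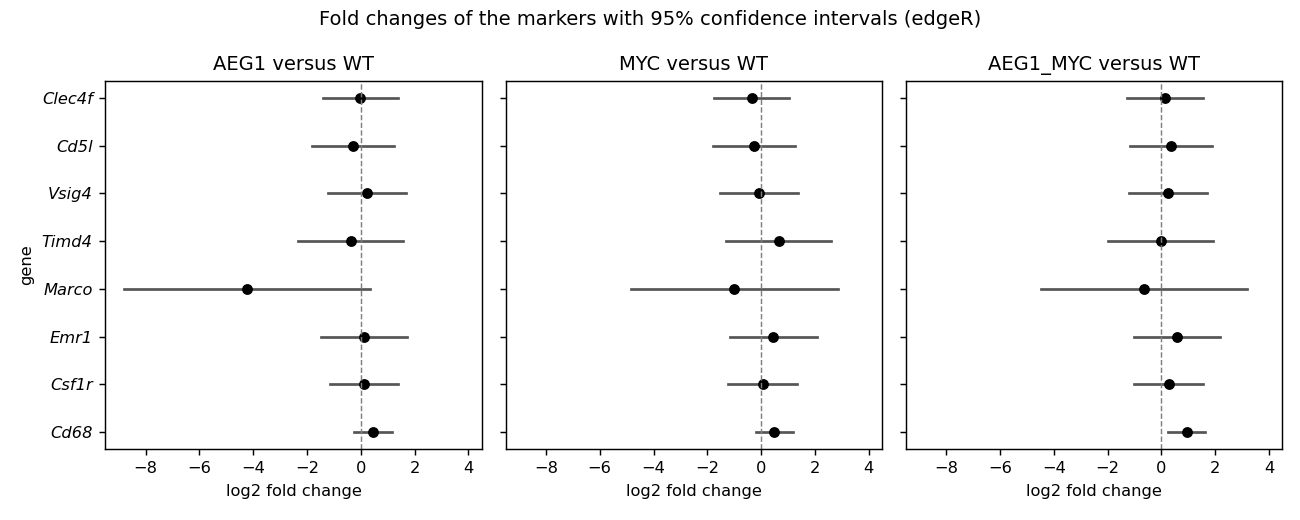
Log2 fold changes (points) and 95% confidence intervals (lines) of the 8 markers in AEG1, MYC and AEG1_MYC against WT, from edgeR on 3 against 3 mice. Of the 24 intervals drawn, only that of Cd68 in AEG1_MYC lies wholly on one side of 0, at 0.24 to 1.64, and Marco has the widest.

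As a set, the markers had a median log2 fold change of 0.05 in AEG1, 0.00 in MYC and 0.26 in AEG1_MYC against WT, and the median of all tested genes was 0.00, 0.00 and 0.01. Positive values numbered 4, 4 and 6 of 8, beside 49.7%, 49.4% and 51.6% of all genes. The intervals were wide. For AEG1_MYC against WT, the interval of Csf1r ran from -1.01 to 1.55 and that of Marco from -4.46 to 3.18, so changes within those limits could not be told from none with 3 mice a group.

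Per kilobase of the longest coding transcript (GENCODE M21), the WT order was Cd5l at 59.9 ± 43.0 CPM per kb (SD, n = 3), Clec4f at 46.0 ± 25.8 and Vsig4 at 17.5 ± 9.65. Csf1r at 9.61 ± 5.66, Emr1 at 5.22 ± 3.41 and Marco at 4.95 ± 7.58 CPM per kb came next. Cd68 at 4.58 ± 1.13 and Timd4 at 3.25 ± 1.89 CPM per kb were the lowest. Except for Clec4f and Vsig4, neighbours in this order differed by less than the larger of their SDs. The order depends on the transcript chosen. With the shortest coding transcript, Csf1r was 108.5, Emr1 49.4 and Marco 25.7 CPM per kb, which puts Csf1r above Cd5l and Emr1 above Clec4f.

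The variation inside genotypes was mostly shared between the markers, but its size differed between genotypes and markers. In MYC the highest liver had 1.12 times the Clec4f CPM of the lowest, and 3.155 times for Emr1. In AEG1_MYC these ratios were 8.63 and 5.48. Cd5l and Clec4f make up most of the sum that follows. Summed over the 8 markers, the level was 596, 174 and 264 CPM in WT, 254, 258 and 461 CPM in AEG1, 266, 377 and 285 CPM in MYC, and 861, 129 and 249 CPM in AEG1_MYC. WT replicate 1 was the highest WT liver for 8 of 8 markers, and AEG1_MYC replicate 1 the highest of its genotype for 8 of 8. AEG1 replicate 3 and MYC replicate 2 were each the highest of their genotypes for 7 of 8. WT replicate 2 and AEG1_MYC replicate 2 were each the lowest for 7 of 8. Each genotype thus held a liver with high markers, and the exceptions were Timd4 in AEG1 and Clec4f in MYC.

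**Figure D3:**
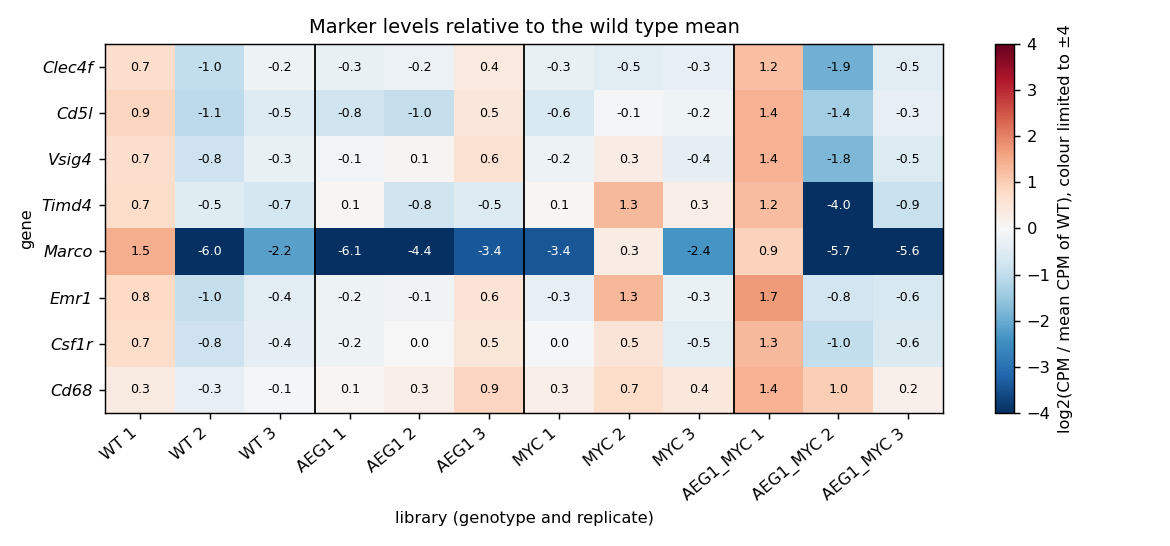
Log2 of the CPM of each marker (rows) in each library (columns) relative to its WT mean; colour is limited to a log2 value of 4 in either direction. AEG1_MYC replicate 1 is above the WT mean for all 8 markers, and AEG1_MYC replicate 2 is below it for 7, with Cd68 above.

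The size of this variation was set beside that of all genes. The SD of log2 CPM between mice of a genotype had a median of 0.256 over the 13684 tested genes. It was 2.72 for Marco and 1.38 for Timd4. For Emr1, Cd5l, Vsig4, Clec4f and Csf1r it was 0.97, 0.95, 0.92, 0.90 and 0.79, above more than 90% of tested genes in each case. Cd68, at 0.42, was above 72.0% of them. Only 10 of the 12081 genes with a mean of at least 1 CPM had a larger SD than Marco, and 175 had a larger SD than Timd4. The highest library had 189 times the Marco CPM of the lowest, 39.2 times the Timd4 CPM, 4.81 times the Csf1r CPM and 3.33 times the Cd68 CPM.

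**Figure D4:**
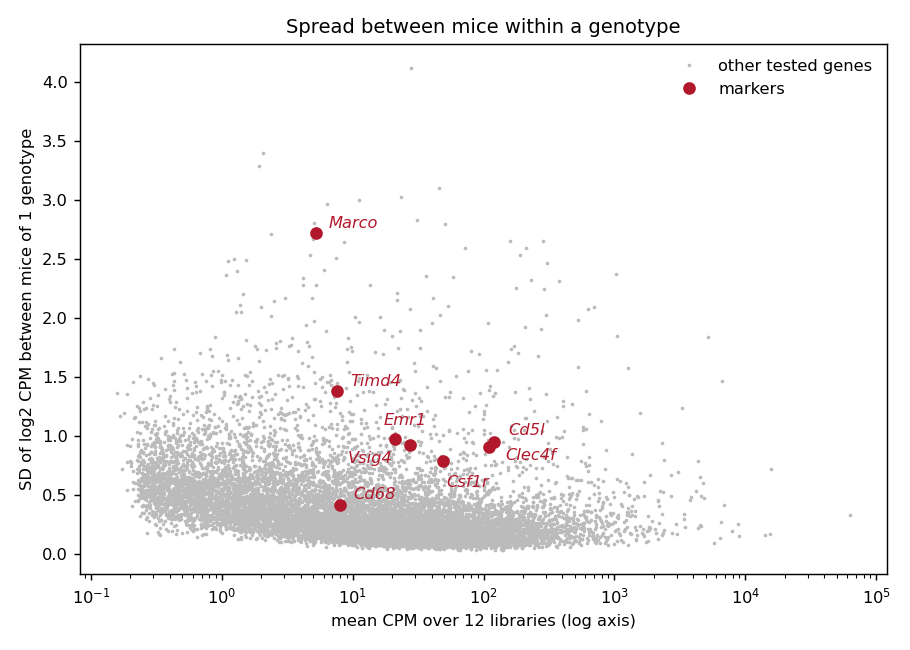
SD of log2 CPM between mice of 1 genotype against mean CPM over the 12 libraries (log axis), with 1 point per tested gene and the 8 markers in red. Marco lies among the widest genes at its level, and Cd68 is the marker nearest to the bulk of genes.

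Pairs of markers differed in how closely they went together across the 12 livers. These correlations of log2 CPM are descriptions over libraries that share genotypes, and AEG1_MYC replicates 1 and 2 weigh on them. Pearson's r was 0.959 for Clec4f with Vsig4 (0.859 over the 10 libraries without those replicates), 0.951 for Vsig4 with Csf1r (0.971) and 0.952 for Emr1 with Csf1r (0.929). Spearman's rho for the same 3 pairs was 0.846, 0.986 and 0.951. Over 12 libraries the lowest values were those of Cd68 with Timd4 (r = 0.0233; 0.430 over 10) and with Clec4f (0.284; 0.537 over 10). Over 10 libraries the lowest was Clec4f with Timd4, at 0.193, against 0.752 over 12.

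In AEG1_MYC replicate 2, Cd68 stood apart from the other markers. In that liver there were 0.0396 Timd4 reads per Cd68 read, against 0.471 to 1.86 in the other 11 livers. Clec4f gave 2.69 reads per Cd68 read there and 8.82 to 25.6 elsewhere. Vsig4 gave 0.638 against 2.56 to 5.66, and Csf1r 2.04 against 4.32 to 10.5. For all 4 of these ratios AEG1_MYC replicate 2 was the lowest liver, outside the range of the rest. The ratios of Emr1 (0.8945 against 1.677 to 4.525), Cd5l (4.185 against 9.279 to 30.94) and Marco (0.01583 from 6 reads, against 0.02326 to 3.672) were also lowest there. All these ratios share the Cd68 count (379 reads in this liver) as denominator, so they are not separate observations. By CPM, Emr1 was lowest in WT replicate 2 and Marco in AEG1 replicate 1. In this liver Cd68, at 11.2 CPM, was above every WT, AEG1 and MYC liver, while Emr1, at 10.05 CPM, lay within the WT range. The 12 other Kupffer cell genes summed to 427 CPM in this liver and 493 to 521 CPM in WT. Slc40a1 and Nr1h3, with WT means of 207 and 107 CPM, made up most of the WT sum. Hepatocytes also express both, so the sum is not a reading of Kupffer cells alone. Some of the 12 genes, such as Mertk, were above their WT range there, and others, such as Cd163, below it. This liver also had the lowest summed hepatocyte, stellate cell and bile duct markers of the 12 (33760, 148 and 2.93 CPM) and the highest Myc (165 CPM). Their part in the ratios was not tested.

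**Figure D5:**
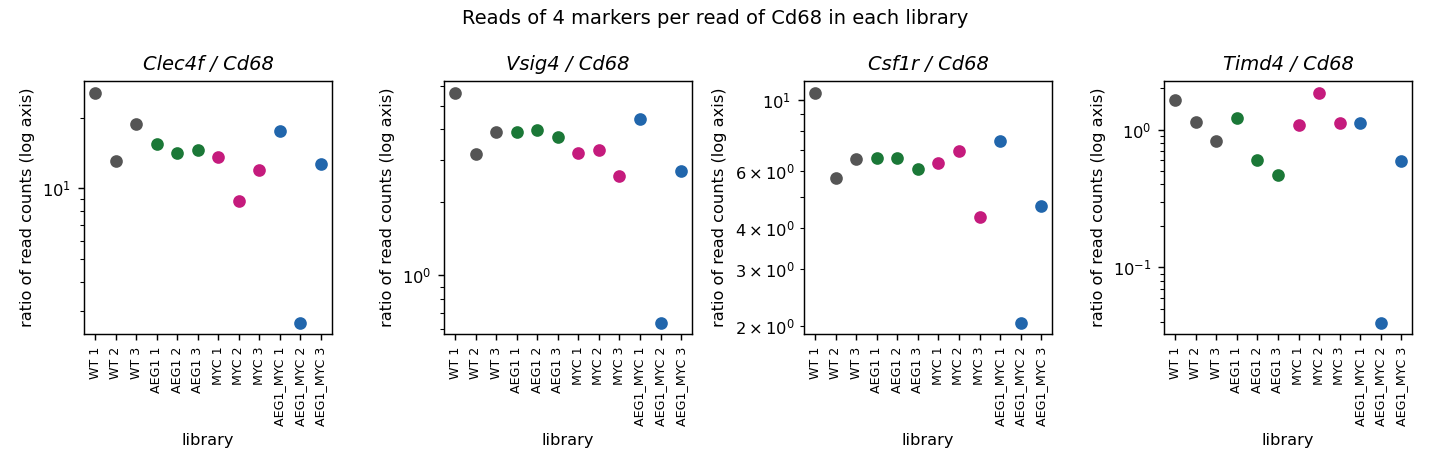
Reads of Clec4f, Vsig4, Csf1r and Timd4 per read of Cd68 (log axis) in each of the 12 libraries, coloured by genotype. AEG1_MYC replicate 2 is the lowest point in all 4 panels, at 0.0396 for Timd4 and 2.69 for Clec4f.

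AEG1_MYC replicate 1 had the highest level of 6 of the 8 markers among all 12 livers, with Marco highest in WT replicate 1 and Timd4 highest in MYC replicate 2. Neutrophil markers were high in the same liver. S100a9, a calcium-binding protein of neutrophils, was 24.1 CPM there and 0.214 to 1.59 CPM in the other 11, and the summed neutrophil list was 69.3 CPM against 1.64 to 7.66 CPM. Monocyte genes also summed highest there, at 36.9 CPM against 10.5 to 18.9 CPM. Of the 8 neutrophil markers 7 were counted, and up to 3 of them had no read in a library outside AEG1_MYC replicate 1. Their part in the marker levels was not tested. S100a9 did not pass in AEG1_MYC against WT (3.53 ± 1.33, edgeR adjusted p = 0.219), passed with DESeq2 (adjusted p = 0.0368) and was near 0 without that liver, at 0.08 by edgeR.

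For each marker the 3 genes of most similar pattern were taken by Pearson's r of log2 CPM over the 12 livers, among genes with a mean of at least 1 CPM. Clec4f was closest to Ptgs1 (cyclooxygenase-1, r = 0.972), Il18bp (the secreted inhibitor of IL-18, 0.971) and Vsig4 (0.959). Vsig4 was closest to Ptgs1 (0.976), Bend4 (0.959) and Clec4f (0.959). Cd5l had Gja4 (0.971), Serpina3g (0.965) and Hk3 (0.956). Emr1 was closest to Emr4 (0.977), its relative among adhesion receptors, Gm11428 (0.974) and Siglece (0.971). Csf1r had Fpr1 (0.970), P2ry12 (0.964) and Ncf1 (0.959), which encode a formyl peptide receptor, a purinergic receptor and a subunit of the phagocyte oxidase. Over the 10 libraries without AEG1_MYC replicates 1 and 2 these 15 values ranged from 0.859 to 0.968.

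Marco, Timd4 and Cd68 had other neighbours. Marco was closest to Pcolce2 (0.916; 0.930 over 10 libraries), Csf2rb, the shared beta chain of the IL-3, IL-5 and GM-CSF receptors (0.878; 0.884), and Serpina3g (0.874; 0.820). Timd4 was closest to Rc3h2, Cldn14 and Tbkbp1, at 0.930 to 0.932, with values of 0.729 to 0.793 over 10 libraries. Cd68 had 4632428N05Rik (0.952), Ly9 (0.945) and Morc3 (0.940). Serpina3g was thus shared by Cd5l and Marco, and Ptgs1 by Clec4f and Vsig4.

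Other genes of Kupffer cells were read beside the markers. Of 12 such genes, 0 passed in any of the 10 comparisons, and their median in AEG1_MYC against WT was 0.10, with 8 positive. Mertk, an apoptotic-cell receptor, stood at 22.3, 15.4 and 23.1 CPM in WT and 52.8, 52.2 and 29.5 CPM in AEG1_MYC. These groups did not overlap, as for 19.5% of all genes. Its log2 fold change of 1.15 ± 0.24 did not pass with edgeR (adjusted p = 0.0921). It passed with DESeq2 (adjusted p = 0.00127) and without AEG1_MYC replicate 3 (edgeR adjusted p = 0.00918), fits that called 4.76% and 4.95% of all genes. Without AEG1_MYC replicate 2 it was 1.02 (edgeR adjusted p = 0.23), and without replicates 1 and 2 together 0.54. The iron exporter Slc40a1 (174 to 272 CPM) and the liver X receptor gene Nr1h3 (91.5 to 121 CPM) had narrow ranges over the 12 livers. Hepatocytes also express both.

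Pan-macrophage genes numbered 18, and 17 of them were positive in AEG1_MYC against WT, with a median of 0.67 and 0 called in any comparison. Their summed level was 686, 303 and 518 CPM in WT and 1222, 354 and 476 CPM in AEG1_MYC, so 2 of the 3 AEG1_MYC livers lay inside the WT range. Lyz2, the lysozyme of phagocytes, was 40.4, 31.1 and 37.8 CPM in WT and 146, 47.0 and 47.5 CPM in AEG1_MYC. Its log2 fold change of 1.14 ± 0.47 did not pass (edgeR adjusted p = 0.254) and was 0.39 without AEG1_MYC replicate 1. Mpeg1, the pore-forming perforin-2 of macrophages, was 222, 105 and 230 CPM in WT and 298, 69.7 and 178 CPM in AEG1_MYC, with a log2 fold change of -0.03 ± 0.46.

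Genes known from lipid-laden and scar-associated macrophages came closest to a call. This list, like the others, was chosen with earlier results of these data known, so its standing here is a description only. None of the 7 passed over all genes, and 4 had an unadjusted p under 0.05 in AEG1_MYC against WT, where 17.2% of all genes did. Gpnmb, a transmembrane glycoprotein of such macrophages, was 0.488, 0.651 and 0.342 CPM in WT, 2.43, 4.03 and 4.02 CPM in AEG1, 1.76, 1.67 and 0.738 CPM in MYC, and 4.43, 14.0 and 2.09 CPM in AEG1_MYC. Every AEG1, MYC and AEG1_MYC liver lay above every WT liver, as for 0.526% of all genes. Every carrier of AEG-1 also lay above every non-carrier, as for 0.132% of all genes. The log2 fold change of AEG1_MYC against WT was 3.78 ± 0.69 (edgeR adjusted p = 0.0590), and that of AEG1 carriers against non-carriers 2.55 ± 0.46 (adjusted p = 0.136). Both passed with DESeq2 (adjusted p = 1.07e-06 and 6.56e-06) and without AEG1_MYC replicate 3 (edgeR adjusted p = 0.00698 and 0.0165). DESeq2 called 4.76% and 0.672% of all genes in these comparisons, and the fit without that replicate 4.95% and 0.468%. The AEG1_MYC value was 2.71 without AEG1_MYC replicate 2 (edgeR adjusted p = 0.0713). Without AEG1_MYC replicates 1 and 2 together the values were 2.07 and 1.70.

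Mmp12, the macrophage elastase, was 0.458, 1.42 and 1.45 CPM in WT, 5.58, 4.95 and 7.63 CPM in AEG1, 3.90, 3.90 and 5.98 CPM in MYC, and 2.41, 17.3 and 8.15 CPM in AEG1_MYC. Here too all 9 transgenic livers lay above all 3 WT livers, which 0.526% of all genes did. AEG1_MYC against WT gave 3.08 ± 0.65, which did not pass (edgeR adjusted p = 0.0921). Mmp12 passed with DESeq2 (adjusted p = 6.26e-05), without AEG1_MYC replicate 1 (edgeR adjusted p = 0.0273) and without AEG1_MYC replicate 3 (edgeR adjusted p = 0.0405). Those fits called 4.76%, 0.288% and 4.95% of all genes. The Mmp12 value without AEG1_MYC replicate 2 was 2.27 (edgeR adjusted p = 0.217). Spp1, osteopontin (24.8 to 63.8 CPM), and Cd9, a tetraspanin (11.4 to 24.8 CPM), overlapped between AEG1_MYC and WT, with -0.15 ± 0.36 and -0.36 ± 0.27. AEG1_MYC replicate 2, low in Timd4, Clec4f and Vsig4, was the highest of the 12 livers for Gpnmb and Mmp12 and the lowest for Spp1. That liver also had the lowest summed bile duct markers (2.93 CPM), and their part in the Spp1 level was not tested.

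Markers of further cell types were read in the same livers. In AEG1_MYC against WT the median log2 fold change was 0.51 for 7 tested monocyte genes, 3.53 for 3 tested neutrophil markers and 0.18 for 6 dendritic cell markers. It was 0.77 for 4 B cell markers and -0.25 for 4 tested T and NK cell markers. Sinusoidal endothelial markers (7 genes) had a median of 0.24, stellate cell markers (6 genes) -0.47 with all 6 negative, bile duct markers (4 genes) -0.45 and hepatocyte markers (7 genes) -0.27. None of these genes passed in any comparison. Summed neutrophil markers were high only in AEG1_MYC replicate 1, at 69.3 CPM. Replicates 2 and 3 had 3.50 and 1.64 CPM, and the WT livers 1.75 to 7.66 CPM. Alb, the albumin gene, was lower in all 3 AEG1_MYC livers than in any WT liver (83490 to 92840 CPM), a comparison in which 19.5% of all genes separated. The AEG1 livers (62880 to 72880 CPM) and MYC livers (53120 to 69970 CPM) were all below WT too, where 10.7% and 11.6% of all genes separated. In AEG1_MYC against WT, Alb had a log2 fold change of -1.13 ± 0.28 (edgeR adjusted p = 0.122). It passed with DESeq2 (adjusted p = 0.00127), which called 4.76% of all genes.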

How the data were processed

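Each library came with its own deposited table of raw counts of reads per gene. Per the submitters' processing notes, CASAVA 1.8.2, TopHat2 2.0.7 and HTSeq were used with the build mm9; annotation and strand setting are not given in the sources used here. Per the labels' protocols, total RNA (Qiagen miRNAeasy mini kit) went into Illumina TruSeq libraries. HTSeq's summary lines were kept out of the totals; no-feature reads were 11.5% to 15.5%, and ambiguous reads 0.634% to 0.746%, of uniquely aligned reads. RefSeq has 2 small genes overlapping each of Emr1 and Csf1r and none overlapping the other 6.

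Counts were fitted in R 4.3.3 with edgeR 4.0.16: filterByExpr, TMM, 1 coefficient per genotype over 12 libraries, robust quasi-likelihood F test (two-sided), Benjamini-Hochberg over 13684 genes. SE is the log2 fold change over the square root of F. Log2 CPM for spread and correlation used a prior count of 2. The fit was tested on counts simulated with the spread typical of each gene's level. That test does not cover the wider spread that most of these markers had. DESeq2 1.42.0 and limma 3.58.1 were alternatives. The p-values set a genotype difference against the spread between mice of a genotype, estimated over all 12 libraries. Members and lists were chosen with earlier results of these data known. From each further list, every called gene, the 2 with the highest mean CPM and those with the lowest p in AEG1_MYC versus WT, MYC carriers and AEG1 carriers could be named; only some of these are given.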

Additional observations from a re-analysis of the deposited data

How the results depend on the processing

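The count of markers called was 0 under every alternative, except AEG1_MYC against WT without AEG1_MYC replicate 3, where it was 1 (Cd68) and 687 of 13891 genes (4.95%) were called; leaving out each library gave 0 to 1. The alternatives were RLE or upper-quartile scaling, no filter or a filter of 1 CPM in 3 libraries, no robust step, DESeq2, limma with library quality weights, the compared libraries alone, each library left out, and AEG1_MYC replicates 1 and 2 left out together, which assumes that the lone AEG1_MYC liver varies like the other groups. Of 435 recomputed marker fold changes, 24 turned sign. All of these came with limma or with single libraries or AEG1_MYC replicates 1 and 2 left out. Other scaling or filters, no robust step, DESeq2 and the compared libraries alone turned none. The cause was not tested.

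In AEG1_MYC against WT, limma gave -0.018 for Clec4f, -0.032 for Vsig4 and -0.024 for Il34. Without AEG1_MYC replicates 1 and 2, Clec4f was -0.46, Cd5l -0.31, Vsig4 -0.54, Emr1 -0.65, Csf1r -0.57, S100a9 -1.33, Csf1 -0.40 and Il34 -0.52, and Marco in MYC carriers was -1.18. Leaving out 1 library gave -1.01 to 0.66 for Clec4f, -0.74 to 1.12 for Cd5l, -1.03 to 0.80 for Vsig4, -5.66 to 2.47 for Marco, -1.75 to 0.57 for Timd4, -0.69 to 1.26 for Emr1, -0.75 to 0.87 for Csf1r, -0.24 to 0.31 for Csf1 and -0.23 to 0.26 for Il34. It gave -0.66 to 0.21 for Timd4 in AEG1 against WT, -2.79 to 2.12 for Marco in MYC against WT, and -1.20 to 2.86 for Marco and -0.35 to 0.80 for Timd4 in MYC carriers.

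Over all genes, calls were 0 in AEG1 against WT, MYC against WT and MYC against AEG1, with up to 15, 28 and 20 by DESeq2. They numbered 36 (2 to 687 over the alternatives) in AEG1_MYC against WT, 44 (2 to 700) against AEG1, 28 (3 to 450) against MYC, 3 (1 to 152) for the interaction, 15 (2 to 305) in MYC carriers, 7 (1 to 92) in AEG1 carriers and 71 (5 to 738) for any difference. Unscaled or RLE totals moved no marker mean beyond its SD. With the shortest coding transcript, 3 WT levels per kilobase moved by more than their SD. No paired analysis was possible because the replicate numbers were given in accession order and pair no mice. Reads of 4 to 9 for Marco and 15 for Timd4 limit those low values.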

Other observations

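Genes beside Marco on the same chromosome did not share its range; they were chosen after the values of Marco were seen. Of its neighbours within 6 places on either side in RefSeq order, 7 passed the filter. Tmem37 (28.0 to 52.5 CPM) correlated with Marco at r = 0.415 over the 12 libraries, and Dbi, 3110009E18Rik, Steap3, Insig2, Ccdc93 and Ddx18 at -0.301 to -0.0392. C1ql2, En1 and Htr5b had 0 reads.

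The 10 genes with a mean of at least 1 CPM and a wider spread than Marco were Dmbt1, Ifi202b, Dach2, Mup11, Mup5, H2-Ea-ps, Cebpe, Ctse, 4930412C18Rik and Dbp. Dmbt1, a scavenger receptor cysteine-rich protein of epithelia, ran from 0.0345 to 198 CPM, and Dbp, a transcription factor of the circadian output, from 0.613 to 142 CPM. Their correlations with Marco ran from -0.436 to 0.331. The Mup genes have near-identical copies, and their counts are uncertain.

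Other relatives of the markers gave 15 genes in the files, of which 12 were tested and 0 were called in any comparison. In AEG1_MYC against WT their median was 0.64, with 9 positive. Clec4a2, a C-type lectin of myeloid cells, was 1.22, 0.651 and 0.940 CPM in WT and 4.16, 1.72 and 1.22 CPM in AEG1_MYC (1.33 ± 0.56, edgeR adjusted p = 0.265). Lamp1 and Lamp2, lysosomal membrane glycoproteins related to Cd68, gave -0.01 ± 0.13 and -0.11 ± 0.12.

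Trem2, a lipid-sensing receptor of macrophages, and Lgals3, galectin-3, were looked at after their values were seen. Trem2 was 0.549, 0.421 and 0.299 CPM in WT and 0.859, 3.62 and 0.803 CPM in AEG1_MYC (2.03 ± 0.67, edgeR adjusted p = 0.182). Lgals3 was 6.04, 4.48 and 3.20 CPM in WT and 14.6, 23.2 and 6.07 CPM in AEG1_MYC (1.67 ± 0.50, edgeR adjusted p = 0.163). AEG1_MYC replicate 2 was the highest of the 12 livers for both. In the other genes of this list it was the highest for Gpnmb and Mmp12, the lowest for Spp1 (24.8 CPM), and within the range of the rest for Cd9 (23.5 CPM) and Itgax (1.66 CPM). Cd163, a haemoglobin scavenger receptor of Kupffer cells also chosen after its values were seen, was 24.8, 2.72 and 11.8 CPM in WT and 36.4, 1.24 and 3.595 CPM in AEG1_MYC, with its lowest value of the 12 in AEG1_MYC replicate 2. Unlike Timd4, Clec4f and Vsig4, further genes of the Kupffer cell list were within or above the WT range in that liver. Mertk was 52.2 CPM against 15.4 to 23.1 CPM in WT, Spic 2.82 CPM against 0.811 to 2.93 CPM, and Hmox1 27.9 CPM against 15.6 to 38.9 CPM. Folr2, Id3, Axl and Slc11a1 were within or above their WT range in every AEG1_MYC liver. Clec1b, Il18bp, Slc40a1 and Nr1h3, like Cd163, had an AEG1_MYC liver below the WT range.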
